A study of Homo sapiens with 2 samples.

Results

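The 4 mature miRNAs cut from the miR-221 and miR-222 hairpins were followed in FaDu cells (written FadU in the labels), a squamous carcinoma line of the hypopharynx, grown as spheres or as a parental culture. All 4 names, miR-221-3p, miR-222-3p, miR-221-5p and miR-222-5p, occur once in each deposited table, among 2038 miRNA names. They were taken by name, whatever their level. Each group holds 1 library: cells expanded as spheres in DMEM-F12 with N2 Plus Supplement, bFGF at 10 ng/ml and EGF at 10 ng/ml, and parental cells in RPMI-1640 with 10% FBS. Both media held 1% penicillin-streptomycin, and no genetic change or drug is named for either group. The labels describe the sphere cells as sphere-derived cancer stem cells. Growth form, basal medium, serum and growth factors differ together between the groups and cannot be told apart, and with 1 library per group no test between the conditions was possible.

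A miRNA hairpin yields a 5p and a 3p strand, and the strand loaded into Argonaute guides it to messenger RNAs through its seed, bases 2 to 8. miR-221 and miR-222 are known from many carcinomas as growth-promoting miRNAs that repress the cell cycle inhibitors CDKN1B and CDKN1C, and also the receptor KIT and the apoptosis gene BBC3. Their shared precursor transcript is known to be induced through RAS-MAPK signalling and the AP-1 factor FOSL1. Messenger RNA was not analysed here, so none of these targets was measured.

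RefSeq sequences (build GRCh38.p14) were found for 3 of the 4 names and are shown because the comparison of the arms rests on them, with the seed in capitals.
miR-221-3p: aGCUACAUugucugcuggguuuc
miR-222-3p: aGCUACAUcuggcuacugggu
miR-222-5p: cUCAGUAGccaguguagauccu
The 3p arms have the first 8 bases AGCUACAU in common and therefore the same seed, GCUACAU, which pairs with the site AUGUAGC in a messenger RNA. Over the first 21 positions they carry the same base at 11. No other of the 2370 human mature names in the RefSeq table has this seed. The seed of miR-222-5p, UCAGUAG, is held by that name alone. The mature lengths are 23 nt for miR-221-3p, 21 nt for miR-222-3p and 22 nt for miR-222-5p.

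The hairpins lie on the minus strand of the X chromosome in GRCh38.p14, MIR221 at chrX:45746157-45746266 and MIR222 at chrX:45747015-45747124, with 748 bases between them. Each mature sequence above is in capitals in its hairpin, which shows where the arms lie.
MIR221: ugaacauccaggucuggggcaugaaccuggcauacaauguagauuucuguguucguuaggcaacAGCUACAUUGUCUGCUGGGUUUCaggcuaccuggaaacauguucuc
MIR222: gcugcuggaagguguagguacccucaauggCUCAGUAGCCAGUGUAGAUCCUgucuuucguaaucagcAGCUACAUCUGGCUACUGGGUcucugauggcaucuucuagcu
In GENCODE release 29 both hairpins are intronic in transcript MIR222HG-201 of the long non-coding host gene MIR222HG, which spans chrX:45745211-45770274. Neither is inside the shorter transcript MIR222HG-202. The submitters' processing notes name hg19 as their build, so these coordinates describe the annotation and not the authors' alignment. RefSeq has 1 locus for each of the 3 matched mature names.

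The values are RPKM, reads per kilobase and per 1000000 reads, as the authors computed them. RPKM summed to 5509071 in the sphere library and 26530004 in the parental library, and 672 and 903 names were above 0. Beside RPKM as deposited, the values of a column were divided by their sum and multiplied by 1000000 ("rescaled RPKM"), which makes each a share of the miRNA signal. Low values fall on steps, from which an estimated 683674 miRNA reads lay behind the sphere column and 4550662 behind the parental column, or 12.1% and 58.5% of the reads that RPKM refers to. The 95% intervals below come from these estimated reads, cover counting error only, compare the 2 libraries and not the conditions, and are no replicate error. The squamous markers fixed for this line were all measured: miR-205-5p, a keratinocyte miRNA, stood at 19458 rescaled RPKM in spheres and 21938 in parental cells, and miR-203a at 35056 and 2698. The other markers were miR-31-5p, at 15598 in spheres and 9379 in parental cells, and miR-200c-3p, at 925 and 585.

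In RPKM, which divides by length, the main arms of the pair stood apart in spheres and level with each other in parental cells. miR-221-3p had 9421 rescaled RPKM in spheres (95% interval 9198 to 9647) and 3403 in parental cells (3350 to 3455), a 2.77-fold higher share (2.69 to 2.85) and a log2 fold of 1.47. miR-222-3p had 2805 rescaled RPKM in spheres (2678 to 2936) and 3443 in parental cells (3388 to 3499), a 1.23-fold lower share (1.17 to 1.29) and a log2 fold of -0.30. The intervals of the 3p arms do not overlap in the sphere library, whereas in the parental library they do. By estimated reads, not divided by length, miR-221-3p was above miR-222-3p in both libraries. The reads were 6720 against 1827 in spheres and 16159 against 14930 in parental cells. In a bulk sample, a change in the number of cells that make a miRNA and a change in its level per cell cannot be told apart.

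As deposited, both 3p arms were lower in spheres, miR-222-3p further than miR-221-3p. miR-221-3p had 51899 RPKM in spheres and 90270 RPKM in parental cells, 1.74 times lower (log2 fold -0.80). miR-222-3p had 15451 RPKM in spheres and 91347 RPKM in parental cells, 5.91 times lower (log2 fold -2.56). The deposited scale sits lower for nearly everything in spheres, since over the 269 miRNAs counted as measured below, the median log2 fold was -2.25 on it and 0.02 after rescaling. In spheres miR-221-3p thus had a larger share of the miRNA signal but a lower value relative to all reads behind the authors' RPKM.

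The 5p arms were scarce in both libraries. miR-221-5p had 126 rescaled RPKM in spheres (100 to 155) and 126 in parental cells (116 to 136), a log2 fold of -0.0013 with an interval of -0.35 to 0.33. As deposited it had 692 RPKM in spheres and 3336 RPKM in parental cells, 4.82 times lower. miR-222-5p was the lowest of the 4, with 11.0 rescaled RPKM in spheres (4.75 to 21.7) and 30.6 in parental cells (25.7 to 36.1). Its share was 2.78-fold lower in spheres (1.37 to 6.57), on only 7.50 estimated sphere reads against 139 parental reads. As deposited it had 60.6 RPKM in spheres and 811 RPKM in parental cells, 13.4 times lower.

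**Figure D1:**
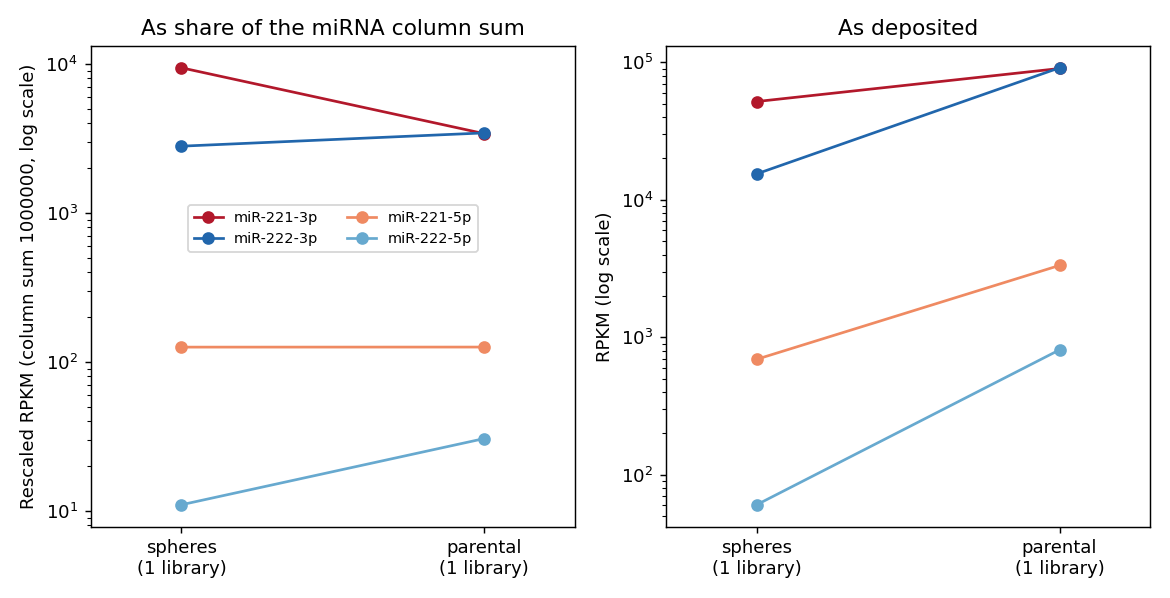
Level of each arm in the sphere and the parental library on log axes, as rescaled RPKM (left) and as deposited RPKM (right), with 1 point per library and a line joining the same miRNA. On the left miR-221-3p is higher in spheres (9421, against 3403 in parental cells) while the miR-221-5p line is level; on the right all 4 lines are lower in spheres.

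Names whose rescaled RPKM averaged 10 or more across the libraries were taken as measured, and 2-fold or more as higher or lower. All 4 members were among the 269 measured names, and each was above 10 in both libraries. After rescaling, miR-221-3p was the only member at least 2-fold higher, where 23% of the measured miRNAs were (62 of 269). miR-222-5p was the only member at least 2-fold lower, where 19% were (51 of 269). miR-222-3p and miR-221-5p lay within 2-fold. Both shares, here and where they are used below, include names that averaged 10 or more only through the library where they are higher. For such names the filter itself favours the call. As deposited, none was at least 2-fold higher, against a background of 6.32%, and 3 of the 4 were at least 2-fold lower, against 79.6%. The exception was miR-221-3p.

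Among all measured miRNAs, 44 had a higher log2 fold than miR-221-3p and 24 a lower one than miR-222-5p. miR-222-3p had 162 above it, and miR-221-5p had 131 below it, near the middle of the 269. Of the 129 names that averaged 100 rescaled RPKM or more, 14 had a higher log2 fold than miR-221-3p. Of these 129, 23 were at least 2-fold higher and 18 at least 2-fold lower in spheres.

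**Figure D2:**
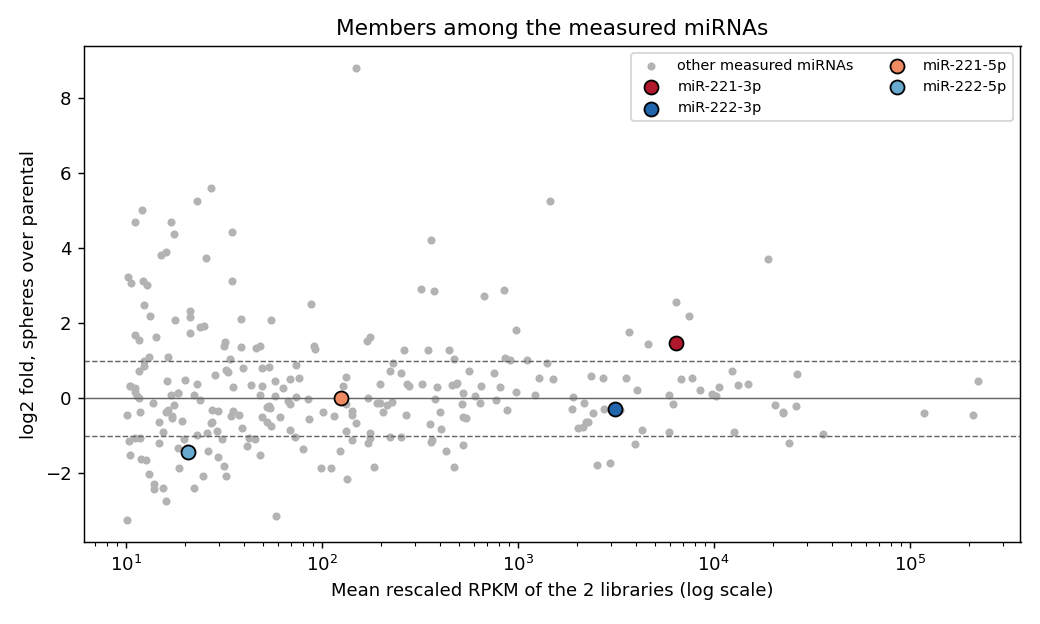
The log2 fold of rescaled RPKM (spheres over parental) against the mean of the 2 libraries on a log axis, for the 269 measured miRNAs, with dashed lines at 2-fold. miR-221-3p lies above the upper line at 1.47, miR-222-5p below the lower line at -1.44, and the other two between them.

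In the order of rescaled RPKM, miR-221-3p was the 20th most abundant miRNA of the sphere library and the 31st of the parental library. miR-222-3p was 37th in spheres and 30th in parental cells, where it stood directly above miR-221-3p. miR-221-5p was 119th in spheres and 120th in parental cells. miR-222-5p was 265th in spheres, level with miR-452-5p, and in parental cells it stood between miR-17-3p at 30.6 and miR-205-3p at 29.8 rescaled RPKM. In spheres miR-221-3p stood between miR-191-5p, at 10241 rescaled RPKM (10009 to 10477), and miR-30e-5p, at 9181 (8956 to 9410). The interval of miR-30e-5p overlaps that of miR-221-3p and that of miR-191-5p does not. miR-222-3p stood in spheres between miR-125a-5p at 2837 and miR-10b-5p at 2493, of which miR-125a-5p was within its counting interval. In parental cells miR-10a-5p, at 3662, was above miR-222-3p and miR-10b-5p, at 3024, was below miR-221-3p, both outside the intervals of the 3p arms.

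Taken by seed, the 3p arms together held 1.22% of the miRNA signal in spheres (1.20% to 1.25%) and 0.685% in parental cells (0.677% to 0.692%), a 1.79-fold higher share (1.74 to 1.83). The family seed was thus below the 2-fold mark although miR-221-3p alone was above it. miR-221-3p made up 77.1% of the 3p signal in spheres and 49.7% in parental cells. As deposited the 3p sum was 67350 RPKM in spheres and 181617 RPKM in parental cells, 2.70 times lower. All 4 arms together had a log2 fold of 0.82 after rescaling and -1.45 as deposited.

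A ratio inside a library does not depend on how that library was scaled, so the ratios below are the same on both scales, apart from the pseudocount of 0.5. The level of miR-221-3p was 3.36 times that of miR-222-3p in spheres and 0.988 times in parental cells. The log2 ratio was therefore 1.76 higher in spheres (1.68 to 1.85), a 3.40-fold difference (3.21 to 3.60). The 5p arms went the same way: miR-221-5p exceeded miR-222-5p 11.4-fold in spheres and 4.11-fold in parental cells, a difference of 1.43 in log2 with a wide interval of 0.30 to 2.68. Both arms of the miR-221 hairpin thus stood higher relative to their miR-222 counterparts in the sphere library.

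The same ratio was taken for other hairpins that share a cluster, using the more abundant arm of each. Of 26 listed pairs, 21 had both partners measured, and 5 of these (23.8%) differed at least 2-fold between the libraries. The pair of miR-221-3p and miR-222-3p had the third largest difference, while the median size over the other 20 pairs was 0.58 in log2. The larger differences belonged to miR-200b-3p over miR-200a-3p, epithelial miRNAs with unlike seeds, at -2.87 (-3.01 to -2.74), and to miR-181c-5p over miR-181d, which share a family, at 1.99 (1.78 to 2.19). miR-200c-3p over miR-141-3p followed at -1.52, and miR-193b-3p over miR-365a-3p at 1.14 on a wide interval of 0.30 to 2.17. The other X-linked pairs measured from the list were miR-106a-5p over miR-20b-5p at -0.027 (-0.52 to 0.47) and miR-374b-5p over miR-421 at 0.23 (-0.72 to 1.19). The list held no pair from the X-linked cluster of miR-532, miR-500a, miR-362 and miR-660. Its members also stood apart, with log2 folds of 1.04 for miR-532-5p, -0.38 for miR-500a-3p, 1.52 for miR-362-5p and 1.64 for miR-660-5p. Where RefSeq gave each partner a single locus, 13 pairs remained, and 1 of the other 12 exceeded miR-221-3p over miR-222-3p. Pairs with a name not matched in RefSeq dropped out too, among them miR-181c-5p over miR-181d. The cut therefore does not mark the dropped pairs as having several loci. It also goes by name: miR-365a-3p, which was kept, had the same deposited values as miR-365b-3p in both libraries.

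**Figure D3:**
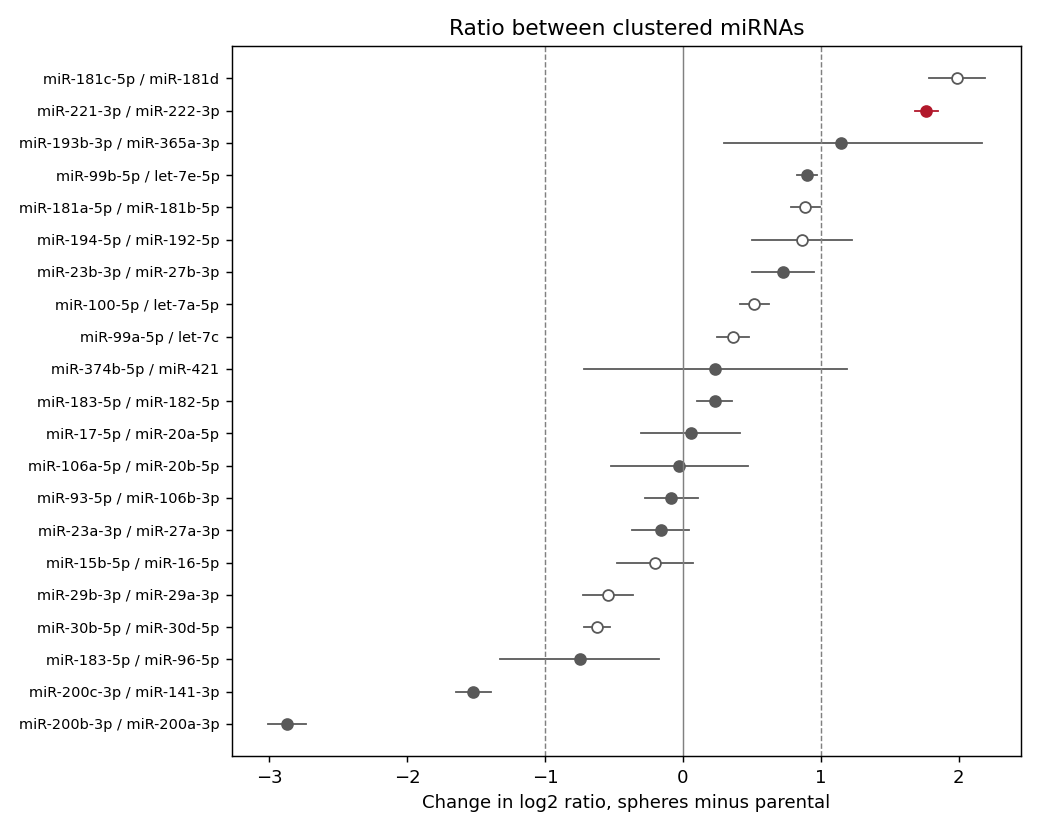
Change in the log2 ratio between the more abundant arms of 21 clustered pairs, spheres minus parental, with 95% counting intervals as lines and 2-fold marked by dashes. Filled points are pairs with a single RefSeq locus for the name of each partner, and open points include pairs with a name not matched in RefSeq. The red point, miR-221-3p over miR-222-3p, lies at 1.76, next to the highest pair at 1.99.

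Within each hairpin the 5p arm was a smaller fraction of the 3p arm in spheres. The level of miR-221-5p was 1.33% of that of miR-221-3p in spheres and 3.70% in parental cells, a log2 change of -1.47 (-1.80 to -1.14). The level of miR-222-5p was 0.392% of that of miR-222-3p in spheres and 0.888% in parental cells, a log2 change of -1.14 (-2.33 to -0.067). On the rescaled scale the 3p arm of miR-221 was higher in spheres and its 5p arm was level. The value for miR-222 rests on the 7.50 sphere reads of its 5p arm, and its interval nearly reaches 0.

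Over 50 hairpins with both arms measured, the 5p to 3p ratio had a median log2 change of 0.16 and was lower in spheres in 23. The major arm is 3p in 25 of them, as in miR-221 and miR-222. Taken as the ratio of the minor to the major arm, it was lower in spheres in 34 of the 50, with a median log2 change of -0.50. In 15 hairpins (30%) the minor to major ratio was at least 2-fold lower, miR-221 and miR-222 included, and in 5 it was at least 2-fold higher. With a pseudocount of 5 the change of miR-222 was -0.86, under 2-fold. The change was lower than that of miR-221 in 7 hairpins and lower than that of miR-222 in 12. Among the 27 hairpins with at least 20 estimated reads on each arm in both libraries, which keeps miR-221 and drops miR-222, the median was -0.58 and 4 lay below miR-221. The most negative changes in the 5p to 3p ratio were those of the epithelial hairpins miR-141 (-2.88) and miR-200a (-2.49) and of miR-25 (-2.23). The most positive were those of miR-181c (1.82), miR-205 (1.70) and miR-21 (1.36), whose major arm is 5p. miR-205-3p passed the filter only through the parental library, with 7.77 rescaled RPKM (5.06 estimated reads) in spheres and 29.8 in parental cells. So did miR-130b-5p, also among the 15, with 5.68 in spheres and 18.4 in parental cells. Among the 5 at least 2-fold higher, 3 minor arms passed only through the sphere library. These were let-7i-3p (11.7 in spheres, 9.25 in parental cells), miR-22-5p (33.0, 9.55) and miR-31-3p (38.1, 9.93). In such hairpins the filter itself favours the direction counted, which limits the counts of 15, 5 and 34.

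**Figure D4:**
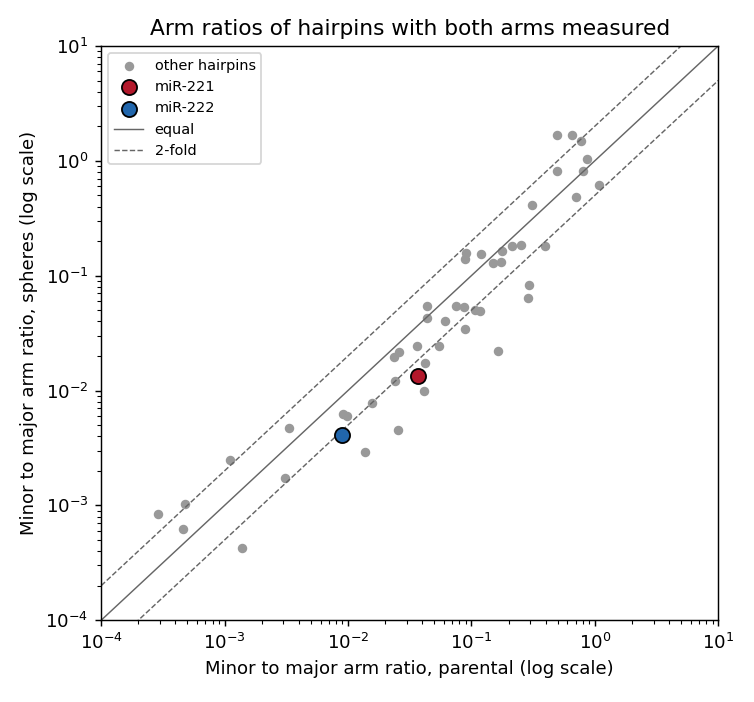
Ratio of the minor to the major arm in the sphere library (vertical) against the parental library (horizontal), both on log axes, for 50 hairpins, with a solid line at equality and dashed lines at 2-fold. miR-221 and miR-222 both lie below the lower dashed line, at changes of -1.47 and -1.14, with 13 other hairpins at 2-fold or more below equality.

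The miRNAs whose log2 fold was closest to that of miR-221-3p, among the same 129 names, were miR-181a-5p (1.43), miR-362-5p (1.52), miR-660-5p (1.64), miR-193b-3p (1.29) and miR-126-5p (1.29). Those closest to miR-222-3p were miR-200b-3p (-0.30), miR-10a-5p (-0.31), miR-30b-5p (-0.28), miR-10b-5p (-0.28) and miR-130b-3p (-0.34). Likeness here is the difference in 1 log2 fold between 2 libraries.

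By their RefSeq mature entry or, where none was matched, by the RefSeq hairpin of the same number, 25 measured names were placed on the X chromosome alone, the 4 members among them. This name matching missed the X-linked let-7f-2-3p (log2 fold -0.85), which is not counted here. Of the 21 placed names other than the members, 5 were higher in spheres by 2-fold or more and 1 was lower, beside 23% and 19% of all measured miRNAs. Their median log2 fold was -0.088, against 0.02 over all 269. The higher ones were miR-660-5p (1.64), miR-362-5p (1.52), miR-361-3p (1.31), miR-532-5p (1.04) and miR-23c (1.68), which counts as measured only through its 17.2 rescaled RPKM in spheres, against 5.03 in parental cells. The lower one was miR-424-3p (-1.05). miR-98-5p, of the let-7 family, was the most abundant of the other 21, at 3079 rescaled RPKM in spheres and 5557 in parental cells (-0.85). miR-106a-5p had 172 rescaled RPKM in each library. As deposited, none of the 21 was at least 2-fold higher and 17 were at least 2-fold lower, near the 79.6% of all measured miRNAs.

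Other miRNAs known to respond to growth factor, RAS-MAPK, AP-1, MYC or CREB signalling were listed for comparison, since the host transcript belongs to that group. The list was not sorted by direction of response, so its median and counts give no direction of signalling, which was not tested. Of 12 listed, 9 were measured, and their median log2 fold was 0.46. In spheres 2 of the 9 were higher by 2-fold or more and none lower, beside 23% and 19% of all measured miRNAs. The higher ones were miR-34a-5p, known as a p53 target (2.51), and miR-143-3p (1.34). miR-21-5p, an AP-1 target, was at 0.46, miR-31-5p at 0.73, miR-7-5p at 0.06 and miR-92a-3p, of the MYC-driven miR-17-92 cluster, at -0.95. As deposited, 7 of the 9 were at least 2-fold lower, near the 79.6% of all measured miRNAs.

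miR-221 and miR-222 are also made by endothelial and mesenchymal cells, whose markers were therefore listed. The endothelial miR-126-5p had 376 rescaled RPKM in spheres and 154 in parental cells, a log2 fold of 1.29. miR-126-3p had 68.9 in spheres and 38.3 in parental cells, a log2 fold of 0.84. Of 5 mesenchymal markers only miR-143-3p was measured, and the 5 summed to 76.5 rescaled RPKM in spheres and 28.9 in parental cells. miR-199a-3p had 7.08 rescaled RPKM in spheres and 2.02 in parental cells, and miR-199a-5p had 1.40 and 1.05. miR-145-5p and miR-214-3p had 1.40 and 0.24 rescaled RPKM in spheres, under the 4.40 of 3 reads, and were listed at 0 in parental cells, which allows up to 0.66. Of 6 blood markers only miR-486-5p was measured, and the 6 summed to 241 rescaled RPKM in spheres and 745 in parental cells. That sum is mostly miR-486-5p, at 207 in spheres and 741 in parental cells. Of the other 5, miR-150-5p had 13.2 in spheres and 0 in parental cells, miR-142-5p 12.3 and 3.25, miR-451a 5.86 and 0.44, and miR-142-3p 2.80 and 0, while miR-223-3p was at 0 in spheres and 0.084 in parental cells. The log2 folds of miR-126-5p (1.29) and miR-143-3p (1.34) were close to that of miR-221-3p (1.47), and the part of these markers in the result was not tested.

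Apart from the pseudocount, a change of scaling adds the same shift to every log2 fold, so it could not alter the order of the 4 members. miR-221-3p had log2 folds of 1.25 to 1.47 under the 5 scalings based on the miRNA values themselves, and miR-222-3p -0.52 to -0.30. Both were lower as deposited, at -0.80 for miR-221-3p and -2.56 for miR-222-3p.

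**Figure D5:**
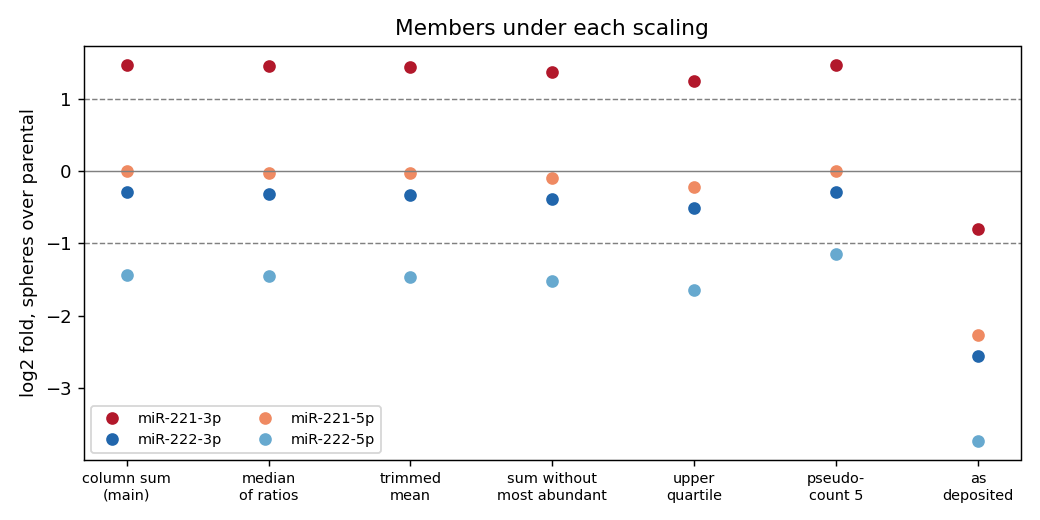
The log2 fold of each member (spheres over parental) under 6 scalings and 1 other pseudocount, with dashed lines at 2-fold. The order of the 4 members is the same in every column, since a scaling shifts them all alike, and miR-221-3p is below 0 only as deposited, at -0.80.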

How the data were processed

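Small RNA libraries were made with the TruSeq kit from 1 µg of total RNA with size fractionation, per the labels' protocols. Per the file headers, the authors deposited 1 RPKM value per mature miRNA name. The build is hg19 per the submitters' processing notes. The aligner, the annotation release and the treatment of multiply matching reads were not given in the sources used here. No replicate exists, so no p-value is given.

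Columns were rescaled to 1000000. Log2 folds use a pseudocount of 0.5 rescaled RPKM, which understates changes of low miRNAs. The commonest value, 8.07 RPKM in spheres and 5.84 RPKM in parental cells, was taken as 1 read on 22 nt. With RefSeq lengths (22 nt where none was matched), 40.7% of 386 and 41.8% of 486 values below 20 reads were whole reads within 0.01. Multiples of 0.5 reads made it 51.0% and 52.5%. The estimate is therefore approximate and includes fractions of reads. Intervals are exact (Clopper-Pearson) for levels and folds. Those of differences between ratios are normal approximations above 30 reads and exact conditional ones otherwise. Reads were rounded to whole numbers for them.

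RefSeq names matched 1714 of 2038 miRNAs. The members and lists were chosen with earlier results of these data known. A further list of miRNAs grouped by their targets is not reported here. Named miRNAs are the members, their seed sharers, level and fold neighbours, list members (up to 4 by level, and those past 2-fold), and the 3 hairpins at each end of the arm ratios. Also named are arms that passed the filter through 1 library, and miR-365b-3p, which has the values of miR-365a-3p. Steps were tested on simulated data. Python 3.11.15, pandas 2.3.3 and scipy 1.17.1 were used.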

Additional observations from a re-analysis of the deposited data

How the results depend on the processing

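With no rescaling, that is RPKM as deposited, the log2 fold of miR-221-3p reversed to -0.80, and those of miR-222-3p, miR-221-5p, miR-222-5p and the sum of all 4 moved to -2.56, -2.27, -3.73 and -1.45. On that scale 17 of 269 miRNAs were higher and 214 lower, against 62 and 51 after rescaling. This follows from how the scale is built, as miRNAs take 12.1% of the reads behind RPKM in spheres and 58.5% in parental cells. The upper quartile shifted all folds by -0.22 and gave 1.25 for miR-221-3p, -0.52 for miR-222-3p and 0.60 for the sum. The column sum without the most abundant miRNAs gave 1.37, -0.39 and 0.72. Under these 2 scalings, the median of ratios and the trimmed mean of log ratios, miR-221-3p remained at least 2-fold higher. Without a filter, 19.9% of the 972 miRNAs above 0 in either library were higher and 18.5% lower. Of the 129 that averaged 100 rescaled RPKM or more, 23 were higher and 18 lower. The pseudocounts moved no member's log2 fold outside its counting interval. Nor did the pseudocounts do so for the change in the ratio of the 3p arms or in the arm ratio of either hairpin. A pseudocount of 5 did bring the arm change of miR-222 to -0.86, under 2-fold. The use of reads in place of RPKM could not move these changes, as the lengths cancel between the libraries. The depth of the sphere library limits miR-222-5p most, at 7.50 reads. No paired analysis was possible because each group holds a single library, and for that reason none could be left out.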
